A study of Mus musculus with 6 samples.

Results

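Of 3005 cell barcodes from live, CD45-sorted cells of the mouse hippocampus, 67 were named monocytes or macrophages other than microglia. The barcodes were those that the authors' deposited cell table names Monocytes, 42 in number, or Macrophages, 25 in number, and their counts were taken from the raw matrices of the same libraries. Microglia, with 2721 barcodes, served as the comparison within the same libraries. Mice labelled BC57BL/6 went through learned helplessness, in which 180 foot shocks of 0.3 mA that cannot be escaped precede a test of escape in 30 trials of 24 s. The acute groups, helpless and non-helpless, were tested once. The chronic groups, retested weekly for 3 weeks, were non-helpless, non-recovered (still helpless) and recovered (helpless at first and later not), and a non-shocked group was the control. All mice were perfused, meninges and choroid plexus were removed from the hippocampi, and cells were enriched on Percoll before sorting. Each group had 1 library of 5' droplet sequencing, which leaves replicate spread unknown, and differences between groups could not be tested. Age, sex and the number of mice in a library are not stated in the labels. Intervals of shares, levels and ratios are exact at 95% and reflect counting error alone.

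Monocytes are blood leukocytes made in bone marrow. Classical monocytes, which carry Ly6C and the chemokine receptor Ccr2, enter inflamed tissue, whereas patrolling monocytes stay along vessel walls. Microglia settle the brain in the embryo and maintain themselves there. Border-associated macrophages live in the meninges, the choroid plexus and the spaces around vessels, and are known by the mannose receptor Mrc1, the chemokine Pf4 and the membrane protein Ms4a7.

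The libraries held 121 to 687 barcodes, with median depths of 2814 to 4839 UMIs (unique molecular identifiers, each counting 1 captured RNA molecule). Monocyte barcodes had a median of 6254 UMIs, from 816 to 26250, and macrophage barcodes a median of 2924, from 835 to 6957. The median of microglia was 3987 UMIs. A batch number is deposited for each cell, without a statement of what it stands for. The acute helpless library was batch 1, the acute non-helpless library batch 2 and the 3 chronic libraries batch 3, while the non-shocked library had 128 cells of batch 2 and 458 of batch 3. The chronic libraries thus shared a batch with one another and with most non-shocked cells, and the acute non-helpless library with the other non-shocked cells. The acute helpless library shared a batch with no other, so there batch and group cannot be told apart, nor can they between acute non-helpless and chronic cells. In 5 cases 2 libraries shared a barcode sequence, and 1 of the 67 was among them. A doublet caller marked 56 of 3005 cells and none of the 67.

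Most of the barcodes held RNA typical of a cell type other than the deposited name. RNA of other cell types was sought with 3 sets of 7 genes each, for neutrophils, microglia and lymphocytes, and each barcode was counted once, under the first of these, in that order, whose threshold it met. Among the 42 monocyte barcodes, 4 held neutrophil genes (at least 20 UMIs), and 26.3% to 50.1% of all their UMIs came from those 7 genes. Another 24 held microglial markers (at least 0.5% of UMIs in P2ry12, Tmem119, Sall1, Gpr34, Siglech, P2ry13 and Olfml3), and 1 held lymphocyte genes (at least 3 UMIs). That left 13 with none of the 3. Counted regardless of the order, 25 met the microglial and 4 the lymphocyte threshold. Among the 25 macrophage barcodes, 7 held microglial markers, 9 held lymphocyte genes and 9 held none of the 3. The same microglial threshold was met by 96.7% of microglia, whose median was 1.76% (0.626% to 2.69% for the central 90% of cells). It was also met by 113 of 161 T cell barcodes (70.2%), 16 of 39 NK cell barcodes (41.0%) and 0 of 17 B cell barcodes. Microglial markers were thus not particular to the monocyte and macrophage names. The threshold was not sharp for all barcodes, because 15 of the 67 lay between 0.25% and 1%, 2 of them below it.

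**Figure D1:**
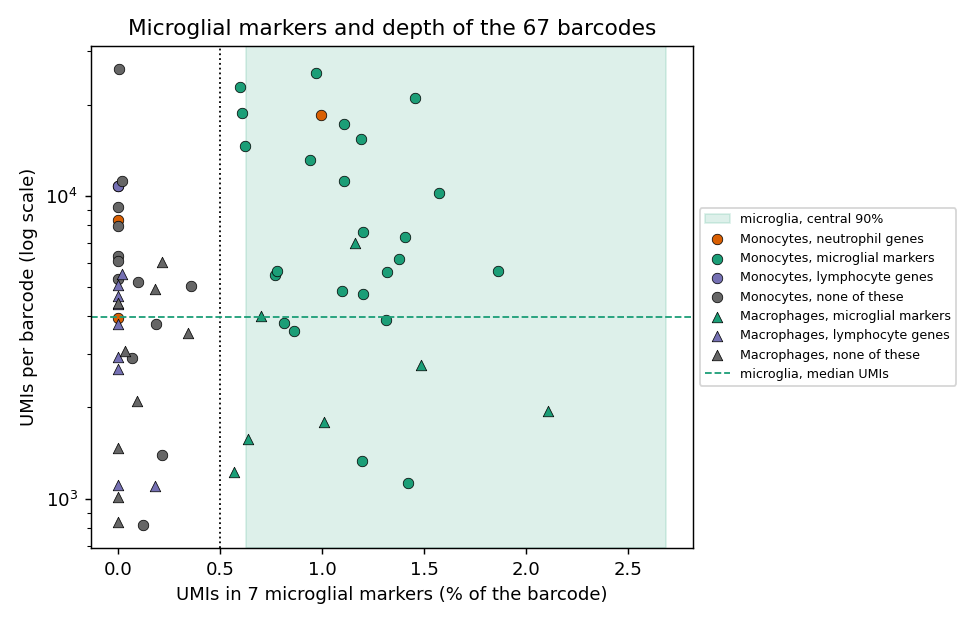
Each point is 1 of the 67 barcodes, with its share of UMIs in 7 microglial markers (percent) on the x axis and its total UMIs on a log y axis. Circles are monocytes, triangles are macrophages and colours give the further RNA. The shaded band holds the central 90% of microglia, the dotted line is the 0.5% threshold and the dashed line is the microglial median of 3987 UMIs. The 24 monocyte barcodes with microglial markers lie both above and below the dashed line.

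The 24 monocyte barcodes with microglial markers were of unequal depth. In 11 of them the total was at least 2 times the microglial median of their own library, and in 13 it was lower. The 9 macrophage barcodes with lymphocyte genes all had UMIs of Cd79a and Cd79b, the signalling chains of the B cell receptor, and of Ebf1, a transcription factor of B cells. Ms4a1, which encodes CD20, was found in 8 of the 9, and Lyz2, the lysozyme of myeloid cells, in 1. Of these 9 barcodes, 7 came from the acute helpless library. Among the 9 macrophage barcodes with none of the 3 contents, 8 had at least 5 UMIs of Lyz2 and 7 at least 5 of Apoe, the apolipoprotein of macrophages and glia. The remaining one, from the recovered library, had 1472 UMIs in all, with 5 of Ebf1, 4 of Ms4a1 and none of Lyz2. The names below are therefore those of the deposited table, and values are given for the whole and for these contents.

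**Figure D2:**
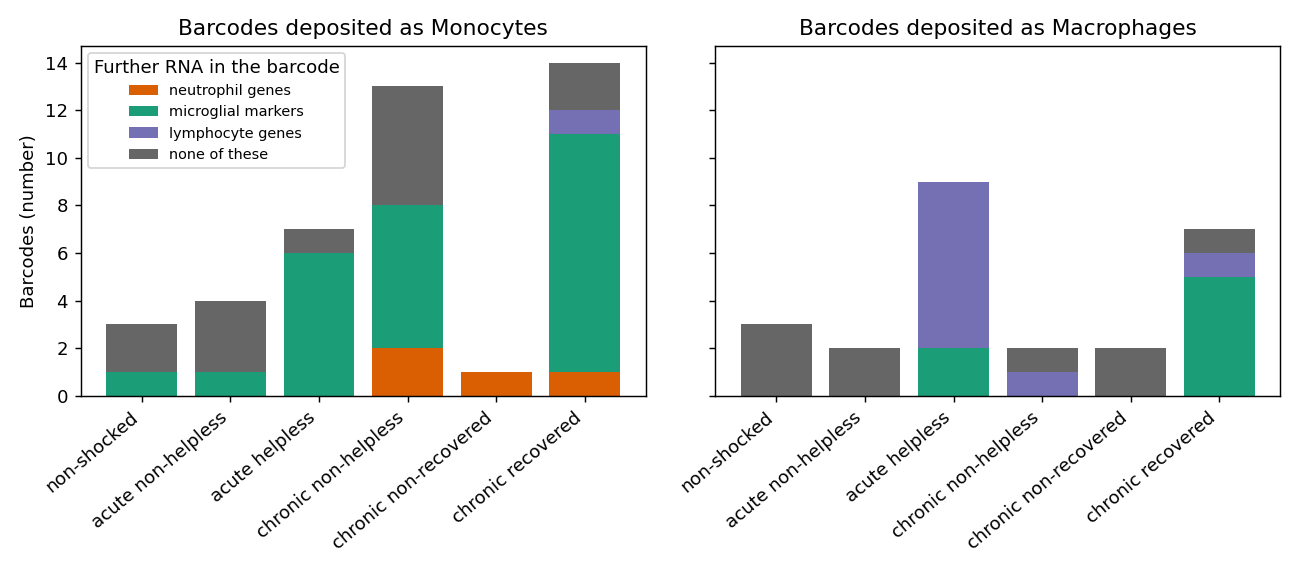
Bars give the number of barcodes deposited as monocytes (left) and macrophages (right) in each of the 6 libraries, starting at 0 and stacked by the further RNA they held. Most of the 14 recovered monocyte barcodes held microglial markers, and 7 of the 9 acute helpless macrophage barcodes held lymphocyte genes.

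One gene was found in every barcode named monocyte. Ifitm3, an interferon-induced membrane protein that restricts virus entry, had a UMI in 42 of 42 monocyte barcodes, in 6 of 25 macrophage barcodes and in 52 of 2721 microglia (1.91%). In monocyte barcodes it reached 94 UMIs. Among cells thinned to 1000 UMIs, 70.7% of monocyte barcodes, 2.55% of T cell barcodes and 0.308% of microglia had it. The next gene in that order, Cybb, a subunit of the phagocyte NADPH oxidase, was found in 69.0% of monocyte barcodes. Some MHC class II genes were likewise found in every macrophage barcode, and they too were found in barcodes of other names. H2-Aa and Cd74 were found in 25 of 25 macrophage barcodes, whereas 1.18% and 8.31% of microglia had them. Of 42 monocyte barcodes 15 had H2-Aa and 27 had Cd74, and of 17 B cell barcodes 14 had each. How the types were assigned is not stated in the labels, and both names come from expression, so a level of these genes is a description that is not independent of the name.

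The 6 genes taken as markers of these cells were found in a minority of the barcodes. Ly6c2, the monocyte antigen, had 237 UMIs in 11 of 42 monocyte barcodes, which is 624 CPM (UMIs scaled to the same total in each type), against 25.4 CPM in macrophage barcodes and 3.90 in microglia. Ccr2 was at 231.5 CPM in monocyte barcodes (14 of 42 with a UMI), 88.8 in macrophage barcodes and 4.27 in microglia. Plac8, a small protein of myeloid cells, was at 563 CPM (16 of 42), 127 and 1.18. The order was the other way for macrophage genes. Mrc1 was at 279 CPM in macrophage barcodes (6 of 25), 36.8 in monocyte barcodes and 11.98 in microglia. Pf4 was at 254 CPM (5 of 25), 49.99 and 1.27. Ms4a7 was at 165 CPM (4 of 25), 57.9 and 0.999. These pooled levels rest on few barcodes, since 1 monocyte barcode held 92 of the 237 Ly6c2 UMIs and 1 macrophage barcode 9 of the 20 Pf4 UMIs. The order of these values did not hold in every library, where counts were small. In acute non-helpless, Ccr2 was at 241 CPM in monocyte barcodes (5 UMIs, interval 78.3 to 563). It was at 387 CPM in macrophage barcodes, from 2 UMIs in 1 barcode (46.9 to 1398), so the intervals overlapped. Mrc1 and Ms4a7 had 0 UMIs in the macrophage barcodes of the acute helpless and recovered libraries. The monocyte barcodes of these libraries also had 0 UMIs of Mrc1, and 0 and 1 of Ms4a7.

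By barcode, 20 of 42 monocytes had at least 3 UMIs of the 3 monocyte markers together, as did 3 of 25 macrophages and 11 of 2721 microglia. At least 3 UMIs of the 3 macrophage markers were found in 5 of 25 macrophages, 3 of 42 monocytes and 7 of 2721 microglia. None of the 6 genes had a UMI in 14 monocyte and 11 macrophage barcodes. All 5 of the macrophage barcodes rich in macrophage markers had none of the 3 contents. Of 25 border-associated genes 8 could be compared between macrophage barcodes and microglia. At least 2-fold higher were 6, Pf4, Mrc1, Dab2, Apoe, Tgfbi and Ms4a6c, against 26.9% of all genes in that comparison. Of the 8 genes, 5 reached the level needed for a comparison only in macrophage barcodes. Other genes of the list, named after their values were seen, had few UMIs there, with 1 of Cd163, 2 of Cbr2 and none of Lyve1 or Folr2.

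**Figure D3:**
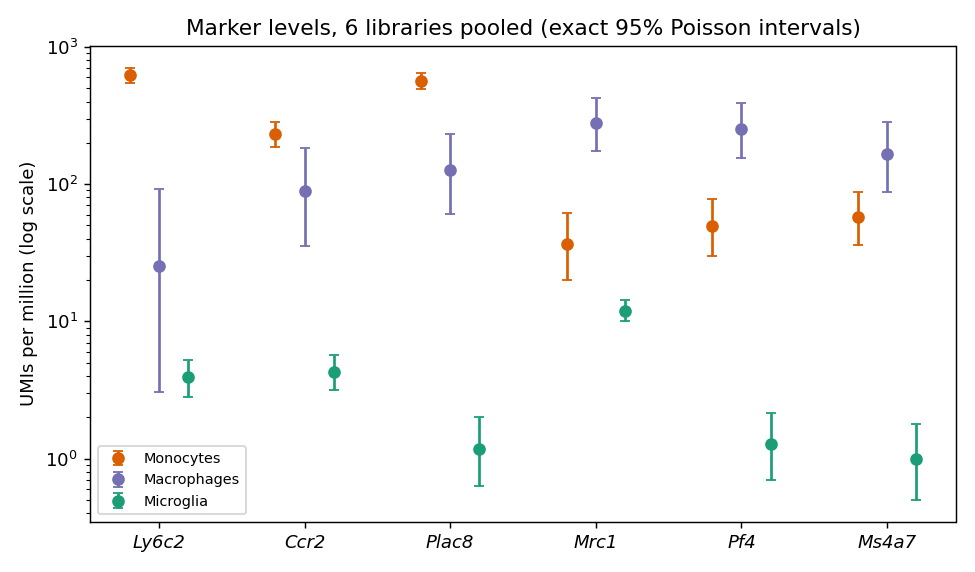
Points give the level of the 6 marker genes in CPM, on a log axis, with the 6 libraries pooled, for monocytes, macrophages and microglia, and bars are exact 95% Poisson intervals. The 3 monocyte markers are highest in monocyte barcodes, at 231.5 to 624 CPM, and the 3 macrophage markers in macrophage barcodes, at 165 to 279 CPM.

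The share of monocyte barcodes among sorted cells was highest in the recovered and the chronic non-helpless library. It was 0.512% of cells in the non-shocked library (3 barcodes, interval 0.106% to 1.49%), 0.683% in acute non-helpless (4, 0.186% to 1.74%) and 1.02% in acute helpless (7, 0.411% to 2.09%). It was 2.38% in chronic non-helpless (13, 1.27% to 4.03%), 0.826% in non-recovered (1, 0.0209% to 4.52%) and 2.93% in recovered (14, 1.61% to 4.87%). The interval of the recovered library thus lay above that of the non-shocked library, and the non-recovered interval overlapped all others. With non-shocked cells limited to batch 3, their share was 0.655% (0.135% to 1.90%), so its interval overlapped that of the recovered library. The order was another for barcodes without RNA of the other types. Barcodes with none of the 3 contents made up 0.341%, 0.512%, 0.146%, 0.914%, 0% and 0.418% of cells, in the same order of libraries, with overlapping intervals, and 0 of 121 non-recovered cells has an exact upper bound of 3.00%.

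Macrophage barcodes made up 0.512% of non-shocked (3), 0.341% of acute non-helpless (2), 1.31% of acute helpless (9), 0.366% of chronic non-helpless (2), 1.65% of non-recovered (2) and 1.46% of recovered cells (7). All of these intervals overlapped. Without RNA of the other types the counts were 3, 2, 0, 1, 2 and 1 barcodes.

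Pooled over libraries, monocyte barcodes differed from microglia by at least 2-fold higher levels in 448 of 3939 genes tested (11.4%) and by at least 2-fold lower levels in 503 (12.8%). Genes were compared where at least 20 UMIs were expected at the level of either group. A gene that reached this in 1 group alone, as 545 did in monocyte barcodes and 771 in microglia, could be found apart in 1 direction only, so counts over a list describe the genes compared and are not evidence about the whole list. Without the chronic non-helpless library 307 of 2716 genes were lower (11.3%), and without the recovered library 327 of 2327 (14.1%). The median over all genes was -0.24 on the log2 scale. Among the genes that were higher, Cxcl10 and Cxcl9, chemokines that draw activated T cells, stood first, with 212 against 4 and 126 against 0 UMIs. A single acute non-helpless barcode held 74.1% of the Cxcl10 UMIs, and 5 of 42 barcodes had any. Cxcl9 was also found in 5 barcodes, and its level was at least 1217-fold that of microglia. Genes spread over more barcodes were Plac8 (477-fold, interval 273 to 911), Plbd1, a phospholipase-like protein (454-fold, 17 of 42 barcodes), and Ifitm6 (634-fold, 14 of 42).

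Genes of classical monocytes took 1.25% of the UMIs of monocyte barcodes over all 20 listed genes, against 0.0696% in microglia, and from 0.0279% to 6.66% in single barcodes. Of the 20 genes 15 could be compared and 14 were at least 2-fold higher (11.4% over all genes). But 13 of the 15 reached the minimum in monocyte barcodes alone. Ly6c2 was higher by 7.32 and Ccr2 by 5.76, both in 5 of 6 libraries. Lyz2 was higher by 5.13 in 6 of 6 libraries. Fn1, which encodes fibronectin, had 100 UMIs in 6 barcodes, 49.0% of them in 1 barcode. Of the S100, annexin and galectin list, which holds calcium-binding and cytoskeletal proteins typical of migrating leukocytes, 14 of 17 genes were higher, and 15 of the 17 reached the minimum in monocyte barcodes alone. The list took 0.832% of UMIs against 0.11% in microglia. S100a6 and Vim were higher in 6 of 6 libraries, by 7.05 and 6.54. In the 13 barcodes with none of the 3 contents the classical list took 2.46% of UMIs, and 37.6% of 964 genes were higher than in microglia and 31.7% lower.

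A group of 3 chronic non-helpless barcodes with none of the 3 contents carried the fullest classical set. The deepest had 26250 UMIs, with 423 of Lyz2, 92 of Ly6c2 and 49 of Fn1. It also had 43 UMIs of Prtn3, a protease of bone marrow progenitors, 39 of the proliferation gene Mki67 and 35 of Top2a. The second had 7972 UMIs, with 296 of Lyz2, 42 of Ly6c2, 37 of Plac8 and 14 of Ccr2. The third had 9205 UMIs, with 212 of Lyz2, 36 of Plac8, 32 of Ccr2 and 22 of Ly6c2. A recovered barcode of 14572 UMIs combined 491 UMIs of Lyz2, 29 of Plac8, 21 of Ly6c2 and 13 of Ccr2 with microglial markers.

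Genes of patrolling monocytes were found in few barcodes. An acute helpless barcode of 6333 UMIs had 5 UMIs of Ace, 4 of Nr4a1, the transcription factor that these cells require, and 3 of Treml4. A chronic non-helpless barcode of 6099 UMIs had 11 of Ear2 and 7 of Ace. Over all monocyte barcodes Ear2 had 33 UMIs in 8 barcodes, against 1 UMI in microglia. Of 18 patrolling genes 7 could be compared, 5 of them through the level in monocyte barcodes alone, and 5 were higher. Over all genes 11.4% were higher.

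Dendritic cell genes appeared in single barcodes as well. A recovered barcode of 11143 UMIs had 573 UMIs of Cd74, 46 of Cd209a and 21 of Clec10a, lectins of dendritic cells and macrophages. Another recovered barcode, of 13142 UMIs and with microglial markers, had 99 of Fscn1, 58 of Ccr7, the receptor that guides migrating dendritic cells to lymph nodes, and 210 of Ccl5. Fscn1 is also a gene of microglia, at 993 CPM there. A chronic non-helpless barcode of 20968 UMIs with microglial markers had 52 of Xcl1 and 32 of Gzmb, which encode a chemokine and a granzyme of cytotoxic lymphocytes. A non-shocked barcode of 11200 UMIs had 12 of Cd3d and 33 of Isg15.

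Neutrophil genes came from 4 barcodes. S100a8 and S100a9, the subunits of calprotectin, had 5465 and 5708 UMIs in monocyte barcodes and 0 in macrophage barcodes. The neutrophil list took 39.7% of the UMIs of these 4 barcodes, and 0.0216% and 0.035% in the monocyte barcodes with microglial markers and with none of the 3 contents. Ly6c2 was also present in these barcodes, at 4 and 18 UMIs in the 2 chronic non-helpless ones, 5 in non-recovered and 4 in recovered.

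Genes of the microglial core, such as P2ry12, the ADP receptor of resting microglia, were lower in monocyte barcodes. Of 18 genes 16 were lower (12.8% over all genes), with a median of -1.21, and P2ry12 was lower by 1.54 in 6 of 6 libraries. The 7 genes that sorted barcodes by microglial content belong to this list, so its values by content restate the sorting and are given for the other 11 genes alone, which share much of their expression with the 7. Their median was -0.35 in the 13 shallow barcodes with microglial markers, where 3.61% of 499 genes were lower and 10% were higher. It was -0.86 in the 11 deep ones, where 6.97% of 1808 genes were lower and 12.5% were higher, and -3.33 in the 13 barcodes with none of the 3 contents. The classical list took 0.103% of UMIs in the shallow and 0.724% in the deep barcodes. Egr1, an immediate early gene, was the lowest of the genes named by rank against microglia, at 18.4 CPM against 175 CPM.

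Interferon-response genes took 0.833% of the UMIs of monocyte barcodes over all 18 listed genes, against 0.197% in microglia. Of the 18 genes 17 could be compared and 16 were at least 2-fold higher (11.4% over all genes). But 14 of the 17 reached the minimum in monocyte barcodes alone. Irf7, the transcription factor that amplifies interferon production, was at 352.5 CPM against 5.27 (26 of 42 barcodes), and Isg15, a ubiquitin-like protein, at 344.6 CPM against 7.99 (15 of 42). By barcode, 32 of 42 monocytes were above the 95th percentile of microglia, which was 0.382% of UMIs in the list. These were 11 of the 13 with none of the 3 contents, 12 of the 13 shallow and 9 of the 11 deep ones with microglial markers, and none of the 4 with neutrophil genes. Without Ifitm3 the count was 26 of 42, of which 11 of 13, 10 of 13, 5 of 11 and 0 of 4 were in those sets. The list took 1.12% of UMIs in the shallow barcodes, 0.62% in the deep ones and 1.39% in those with none of the 3 contents. Of macrophage barcodes 12 of 25 were above the same percentile, as were 8 of 17 B cell barcodes.

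Promoters are shown for Isg15 and Ifit3, of the interferon list, in which 32 of 42 monocyte barcodes were above the 95th percentile of microglia, and for Cxcl10, an interferon-induced chemokine outside that list, which stood first among genes higher than in microglia. They are RefSeq sequences of the mouse build GRCm38.p6, from 250 bases before to 50 bases after the start of the gene, on the strand of the gene. Capitals mark GAAA and GAAA with any 2 bases between them, the core of an interferon-stimulated response element, searched on both strands (TTTC and TTTC where it lies on the other strand).
Isg15: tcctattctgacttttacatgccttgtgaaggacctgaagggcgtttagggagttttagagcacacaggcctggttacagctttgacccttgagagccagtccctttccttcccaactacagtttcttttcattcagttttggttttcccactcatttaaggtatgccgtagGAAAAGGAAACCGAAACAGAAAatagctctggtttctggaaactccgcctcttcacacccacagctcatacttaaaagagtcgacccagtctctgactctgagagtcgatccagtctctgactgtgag
Ifit3: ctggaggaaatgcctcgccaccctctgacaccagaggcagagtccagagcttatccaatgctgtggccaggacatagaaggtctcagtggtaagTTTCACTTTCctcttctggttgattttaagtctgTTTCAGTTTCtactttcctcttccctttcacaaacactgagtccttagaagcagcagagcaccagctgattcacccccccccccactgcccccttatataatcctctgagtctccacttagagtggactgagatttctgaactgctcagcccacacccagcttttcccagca
Cxcl10: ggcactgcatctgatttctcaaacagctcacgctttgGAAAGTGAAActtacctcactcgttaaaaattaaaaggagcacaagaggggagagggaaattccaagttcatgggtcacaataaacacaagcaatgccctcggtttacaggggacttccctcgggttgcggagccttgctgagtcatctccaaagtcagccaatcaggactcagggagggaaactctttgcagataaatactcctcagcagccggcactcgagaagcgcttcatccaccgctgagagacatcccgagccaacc
The first lies at chr4:156200769-156201068 on the minus strand, the second at chr19:34583279-34583578 on the plus strand and the third at chr5:92348840-92349139 on the minus strand. The motif was found 3 times in Isg15, where the matches overlap, 2 times in Ifit3 and 1 time in Cxcl10. In the promoters of Irf7, Cxcl9 and Ccl12, searched in the same way and not shown, it was found 0 times. Of the 18 interferon genes 13 had a promoter in the table, and 8 of them (61.5%) held the motif, against 1079 of 27025 genes with a promoter of this length (3.99%). Such a match describes the sequence and does not show binding.

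**Figure D4:**
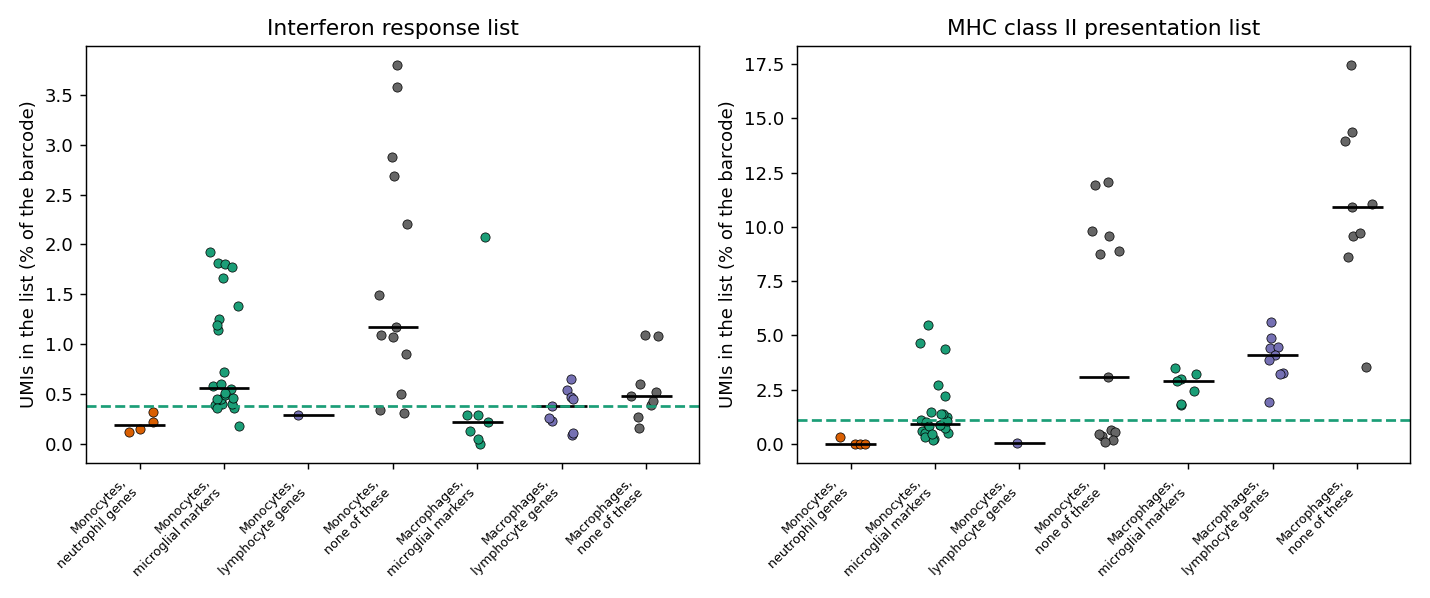
Each point is 1 barcode, with the share of its UMIs (percent) in the interferon response list (left) and the MHC class II presentation list (right), by deposited name and further RNA. Black bars are medians and the dashed line is the 95th percentile of microglia, at 0.382% and 1.11%. Monocyte barcodes lie above the line on the left in 32 of 42 cases, and all 25 macrophage barcodes lie above it on the right.

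Chemokines were carried by a few barcodes with much of each. Of 22 chemokine and cytokine genes 13 could be compared, and 8 were higher than in microglia, against 11.4% of all genes. Of the 13 genes, 6 reached the minimum in monocyte barcodes alone. An acute non-helpless barcode of 5025 UMIs, with 0.358% of UMIs in microglial markers, had 292 of Ccl12, a ligand of Ccr2, and 157 of Cxcl10. A chronic non-helpless barcode of 5468 UMIs with microglial markers had 70 of Ccl12, 61 of Cxcl13, which attracts B cells, and 54 of Cxcl9. Ccl3 and Ccl4, inflammatory chemokines, were higher than in microglia by 2.37 and 2.39. Without the acute non-helpless library they were lower, at -1.97 and -2.40.

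Glucocorticoid-response genes were examined because stress raises corticosterone. In monocyte barcodes 1 of 10 genes compared was higher and 2 were lower than in microglia, with a median of -0.29, which is near the 11.4%, 12.8% and -0.24 of all genes and therefore no result about the list. Anxa1, a mediator of the anti-inflammatory action of glucocorticoids and also a member of the annexin list, was higher by 6.63, and Sgk1, a kinase, was lower by 1.98 on the log2 scale (66 against 7532 UMIs). Fkbp5, a chaperone of the receptor, differed by -0.26.

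Other gene groups differed from microglia in part, with shares of complement and transcription factor genes near those of all genes (11.4% higher and 12.8% lower). Of lysosome and cathepsin genes 3 of 17 were lower in monocyte barcodes, Ctsl, Ctsd and Lgmn, which encode lysosomal proteases, and none was higher, with a median of -0.73. Complement and Fc receptor genes had a median of -0.50, with 2 of 13 genes higher, C3 and the complement activator Cfp, and 2 lower, Fcgr3 among them. Of scavenging, iron and lipid genes Apoe was higher and 4 of 12 were lower, among them Slc40a1, the iron exporter, with a median of -0.50. Of myeloid transcription factors 3 of 19 were higher and 4 lower. Without barcodes with microglial markers the medians were lower, at -1.66 (lysosome), -1.22 (complement), -1.26 (scavenging) and -1.47 (transcription factors). Among integrins, selectins and entry receptors 7 of 15 were higher, such as Itgal and Itga4, by which blood leukocytes attach to endothelium, and 3 were lower, including Cx3cr1. But 7 of these 15 genes reached the minimum in monocyte barcodes alone. MHC class I genes had a median of 1.10, with 6 of 11 higher, and 3 of the 11 reached the minimum in monocyte barcodes alone. Of 5 proliferation genes compared 4 were higher, 3 of the 5 through the level in monocyte barcodes alone, with a median of 3.27. Without the chronic non-helpless library 2 of the 5 still reached the minimum. The median of 0.0036 there thus rests mostly on genes too low to compare.

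Macrophage barcodes differed from microglia by at least 2-fold higher levels in 195 of 724 genes (26.9%) and at least 2-fold lower levels in 177 (24.4%). Without the acute helpless library these were 112 (25.9%) and 83 (19.2%) of 432 genes, and without the 9 barcodes with lymphocyte genes 88 (22.1%) and 60 (15.1%) of 398. The gene that stood first was Fcmr, a receptor for IgM found on B cells (34 against 9 UMIs). Genes of B cells, Ly6d, Ms4a1, Cd79a and Tnfrsf13c, were among the 12 highest. Ms4a1, at 736 CPM against 2.81, was found in 9 macrophage barcodes. Among the others of the 12 were H2-Aa at 8271 CPM against 27.5, Cd74, the invariant chain, at 34176 CPM against 134.9, and Pf4 at 254 CPM against 1.27. The median of the microglial core was -2.16, with 17 of 17 genes lower, 3 of which reached the minimum in microglia alone. It was -3.33 without the recovered library and -1.61 without the acute helpless library.

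The MHC class II list was high in every macrophage barcode. All 25 were above the 95th percentile of microglia (1.11% of UMIs), as were 16 of 42 monocyte barcodes. H2-Aa ranged from 3 to 99 UMIs. Without Cd74, H2-Aa, H2-Eb1 and H2-Ab1, which are alpha, beta and invariant chains, 5 of 25 macrophage and 2 of 42 monocyte barcodes were above the percentile of the 10 genes left. Among B cell barcodes, 14 of 17 had H2-Aa.

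In the 9 macrophage barcodes with none of the 3 contents, 35% of 234 genes were higher and 21.4% lower than in microglia, with a median over all genes of 0.46. All 25 border-associated genes together took 2.58% of the UMIs of these barcodes, against 0.157% in microglia. The 5 that could be compared, Mrc1, Apoe, Dab2, an endocytic adaptor, Tgfbi and Ms4a6c, reached the minimum in these barcodes alone, so that they could only be higher. A non-shocked barcode of 4925 UMIs had 218 of Cd74, 107 of Apoe, 9 of Pf4, 8 of Mrc1 and 3 of Ms4a7. A chronic non-helpless barcode of 3512 UMIs had 238 of Cd74, 112 of Apoe, 8 of Pf4, 7 of Mrc1 and 6 of Ms4a7. A non-recovered barcode of 4439 UMIs differed from these, with 270 of Cd74, 9 of Cd209a, 7 of Ear2 and 5 of Ccr2. The same macrophage genes also occurred under the name monocyte, in a chronic non-helpless barcode of 3786 UMIs with 374 of Apoe, 9 of Pf4, 7 of Mrc1 and 6 of Ms4a7.

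In the 7 macrophage barcodes with microglial markers, 4.12% of 170 genes were lower than in microglia and 21.2% higher. The core genes outside the 7 used for sorting had a median of -0.49 there. In the 9 with lymphocyte genes, 33.5% of 319 genes were lower and 54.9% higher, and the median of all genes was 1.31. All 13 lysosome and cathepsin genes compared were lower there, with a median of -3.39. But 11 of the 13 reached the minimum in microglia alone, so that they could only be lower.

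Compared directly, 71 of 672 genes (10.6%) were at least 2-fold higher in monocyte than in macrophage barcodes and 80 (11.9%) were lower. Without the acute helpless library 38 of 414 genes were lower (9.18%). Of 10 classical monocyte genes 9 were higher in monocyte barcodes, and 8 of the 10 reached the minimum there alone. Of 9 border-associated genes, 6 of which reached it in macrophage barcodes alone, 5 were lower, Mrc1, Dab2, Pf4, Apoe and Stab1, and F13a1, a transglutaminase on both lists, was higher by 1.47. Without the chronic non-helpless library F13a1 was lower, at -0.27. Lymphocyte genes such as Cd79a, with 138 UMIs in macrophage and 0 in monocyte barcodes, made up most of the genes lowest in monocyte barcodes.

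Only the chronic non-helpless and recovered libraries had enough monocyte barcodes, 13 and 14, to be set side by side gene by gene. The 2 sets differed in content, with 6 of 13 and 10 of 14 barcodes holding microglial markers and 5 and 2 with none of the 3 contents. Of 1039 genes, 63 (6.06%) were at least 2-fold higher and 103 (9.91%) at least 2-fold lower in the recovered library. Without barcodes with microglial markers only 3 recovered barcodes were left. Then 248 genes could be compared, of which 62 (25%) were higher and 55 (22.2%) lower. Both libraries belong to batch 3, and the cells of a library are not replicates.

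Classical monocyte genes were lower in the recovered barcodes, in 11 of 15 comparisons (9.91% over all genes) and with a median of -1.19, and none was higher. Of the 15 genes 7 reached the minimum in chronic non-helpless barcodes alone. Without barcodes with microglial markers, which left 3 recovered barcodes, the median was -2.77. In chronic non-helpless barcodes Ly6c2 had 92, 42, 24, 22, 18 and 4 UMIs in 6 barcodes and none in the other 7. In recovered barcodes it had 21 and 4 UMIs in 2 barcodes and none in the other 12. Its level was 1715 CPM against 156 CPM, a difference of -3.46. F13a1 had 43, 25, 8 and 7 UMIs in 4 chronic non-helpless barcodes, and 11 and 1 UMIs in 2 recovered barcodes. Of 5 proliferation genes, 3 of which reached the minimum in chronic non-helpless barcodes alone, 4 were lower. For Mki67 39 of the 44 UMIs came from 1 chronic non-helpless barcode, and the recovered barcodes had none.

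MHC class II genes were higher in the recovered barcodes, in 6 of 7 comparisons (6.06% over all genes) and with a median of 2.04. The median was 4.10 without barcodes with microglial markers, where only 3 recovered barcodes were left. It was 3.14 without barcodes that met the lymphocyte threshold whatever their other content. These were 1 in each library, the chronic non-helpless one holding 204 of Cd74 and 62 of H2-Aa. H2-Aa had 642 UMIs in 6 recovered barcodes against 78 in 2 chronic non-helpless barcodes, a 6.03-fold level (4.76 to 7.73). Cd74 had 681, 573, 473, 354, 127 and 70 UMIs in the 6 highest recovered barcodes, and 204, 122, 21 and 13 in the 4 highest chronic non-helpless barcodes. The 2 libraries overlapped in both genes, since 8 of 14 recovered and 11 of 13 chronic non-helpless barcodes had no H2-Aa. Of those 6 recovered barcodes 4 held microglial markers. Klrd1, a lectin receptor of NK cells and of some dendritic cells, had 50 UMIs in 5 recovered barcodes and 1 UMI in chronic non-helpless barcodes. Ccl12 was lower by 2.52 on the log2 scale in recovered barcodes. Without barcodes with microglial markers it lay at or below the floor of 3 counts in both libraries, so no difference could be measured. The interferon list did not differ in the same way, with 2 of 9 genes lower, none higher and a median of -0.36. Over all genes 9.91% were lower and 6.06% higher, and 2 of the 9 reached the minimum in chronic non-helpless barcodes alone.

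**Figure D5:**
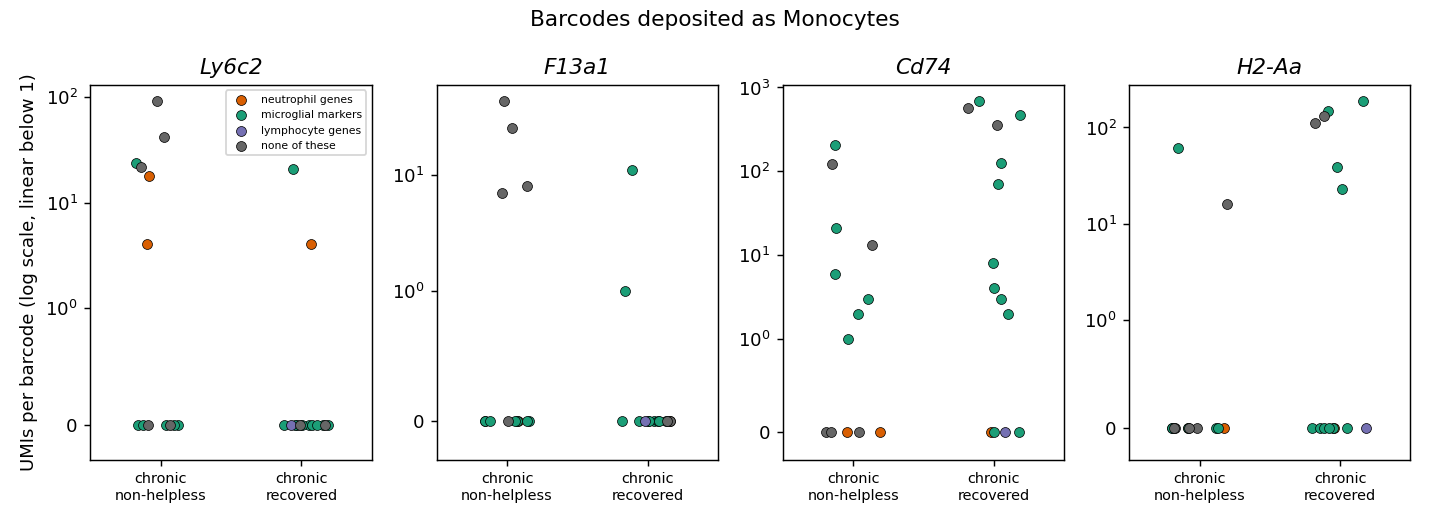
Each point is 1 monocyte barcode of the chronic non-helpless (13) or recovered (14) library, with its UMIs of 4 genes on an axis that is logarithmic above 1 and linear below it, coloured by further RNA. Ly6c2 and F13a1 have more barcodes above 0 in the non-helpless library, and the highest values of Cd74 and H2-Aa are in the recovered library, with overlap in every panel.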

How the data were processed

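Hippocampal CD45-positive cells were profiled in 6 libraries, 1 per group. The authors' deposited raw matrices hold UMI counts per gene and cell, and their deposited cell table gives type, batch and cluster, per the file headers. The submitters' processing notes name Cell Ranger 2.2.0 and Seurat 2.3.4, while the filtering and typing of cells are not stated there. UMI sums equalled the deposited totals in all 3005 cells. For 468 genes older and newer symbols were merged, and 117 symbols found in 1 annotation were left out.

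UMIs were summed per type and divided by the type's total (CPM). Shares have Clopper-Pearson intervals, levels Poisson intervals and ratios conditional exact intervals. Log2 ratios used 3 counts as the floor, and genes with at least 20 expected UMIs were compared. Doublets (Scrublet) were kept. Named genes were the 12 highest and 12 lowest per comparison (8 and 8 between the 2 libraries), with further genes and barcodes chosen after their values were seen. The members, the 22 gene lists and the marker sets were chosen with earlier results of these data known. The method was tested on simulated data. Python 3.11.15, NumPy 2.4.6, SciPy 1.17.1, pandas 2.3.3 and Scanpy 1.11.5 were used.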

Additional observations from a re-analysis of the deposited data

How the results depend on the processing

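No paired analysis was possible because each group had 1 library and no test between groups was made. The alternatives were the rules on content, depth, doublets, scaling, the expected-UMI minimum, the fold and each library left out. Leaving out barcodes with at least 3 lymphocyte UMIs whatever their other content (4 monocytes and 9 macrophages), reading the core list without the 7 genes that sort barcodes, and keeping only barcodes with none of the 3 contents, were chosen after seeing the data. Of the median log2 ratios of lists, 795 recomputed values stayed within the interval of the main median and 54 left it, and 50 and 9 of these changed sign. That interval comes from the ranks of the list's genes and reflects the spread between genes, not counting error. For single genes at least 2-fold apart in the main setting, 14 values changed sign and 232 no longer reached 2-fold. For genes less than 2-fold apart, 319 values newly reached 2-fold on the same side, and changes of sign were not counted. Such changes are therefore among the 8685 remaining values. The cause of the differences was not tested. Depth also limits these data, since the 42 and 25 barcodes gave 380107 and 78828 UMIs and a library held as few as 1 monocyte barcode.

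Shares of monocyte barcodes were 0.146% in acute helpless and 0.628% in recovered cells without microglial-marker barcodes. With none of the 3 contents alone they were 0.146% (acute helpless), 0.914% (chronic non-helpless), 0.418% (recovered) and 0 (non-recovered), and 0 in non-recovered without neutrophil-gene barcodes. With a UMI of the markers given, the recovered share was 1.46%. Shares of macrophage barcodes were 0.418% in recovered cells without microglial-marker barcodes, 0.291% in acute helpless without lymphocyte-gene barcodes, and 0.291% and 0 in acute helpless and recovered with a marker UMI. With none of the 3 contents they were 0 and 0.209%.

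Counts of genes higher and lower at a minimum of 10 expected UMIs were 717 and 917 (monocytes against microglia), 335 and 385 (macrophages against microglia), 178 and 217 (monocytes against macrophages) and 222 and 283 (recovered against chronic non-helpless). At 50 they were 246 and 225, 108 and 68, 24 and 29, and 11 and 27. At 3-fold they were 259 and 91, 105 and 84, 37 and 44, and 20 and 48. With median-of-ratios size factors 277 genes were lower in monocytes than in microglia. Without microglial-marker barcodes, with 3 recovered barcodes left, 55 of 248 were lower in recovered barcodes (22.2%, from 9.91%). Without lymphocyte-gene barcodes the macrophage counts were 88 and 60, and 36 genes were lower in monocytes than in macrophages. With each library left out, the range was 307 to 596 for genes lower in monocytes than in microglia, 112 to 194 higher and 83 to 185 lower for macrophages, and 38 to 80 lower in monocytes than in macrophages, while the genes compared also fell.

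Core medians without microglial-marker barcodes restate that rule, since 7 of the 18 core genes define it. Medians without these barcodes, monocytes against microglia, were 7.74 (classical), -4.33 (core), 6.63 (neutrophil), -1.22 (complement), -1.26 (scavenging), -1.66 (lysosome) and -1.47 (transcription factors). For macrophages against microglia they were -3.79 (core), -3.22 (integrins), -1.58 (complement) and -1.43 (lysosome). For monocytes against macrophages they were -0.58 (core, from 0.90), 3.94 (chemokines), -0.95 (complement), -0.18 (lysosome) and -0.60 (transcription factors). For recovered against chronic non-helpless, with 3 recovered barcodes left, they were -2.77 (classical), 0 (core), -4.80 (neutrophil), 4.10 (MHC class II), -1.72 (immediate early), -0.68 (lysosome) and -1.24 (S100). There 2 of 15 core, 2 of 9 immediate early and 6 of 16 lysosome genes still reached the minimum. Those medians thus rest mostly on genes too low to compare. Without lymphocyte-gene barcodes the medians for macrophages were -1.50 (core), -0.41 (complement) and -0.21 (lysosome). Between monocytes and macrophages they were 0.12 (core) and -0.43 (lysosome), and between the 2 libraries 0.89 (core) and 3.14 (MHC class II). Without neutrophil-gene barcodes the neutrophil median was 0 against microglia and macrophages, with 1 of 11 and 0 of 6 genes still reaching the minimum. That 0 stands for levels at or below the floor. The core median between the 2 libraries was then 0.23. Median-of-ratios factors gave core medians of -0.97 (monocytes against microglia) and 0.52 (between the 2 libraries). With each cell weighted equally the medians were 7.63 (neutrophil) and -0.39 (lysosome) for monocytes against microglia, and 0.35 (core) between the 2 libraries. With libraries matched the neutrophil median against macrophages was 5.08. At a minimum of 10 UMIs the chemokine median between the 2 libraries was -0.98, against 1.05.

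With each library left out, medians of monocytes against microglia ranged from -1.42 to -1.05 (core), 0.0036 to 3.88 (proliferation) and 5.57 to 7.06 (neutrophil). At the lowest proliferation value, without the chronic non-helpless library, 2 of 5 genes still reached the minimum. Those of macrophages against microglia ranged from -3.33 to -1.61 (core), -1.48 to -0.48 (complement), -1.29 to -0.20 (lysosome) and -2.54 to -1.05 (integrins). Those of monocytes against macrophages ranged from 0.25 to 2.11 (core), -0.39 to 0.60 (lysosome) and -0.47 to 0.33 (transcription factors).

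Changes of sign are given for single genes at least 2-fold apart in the main setting. In monocytes against microglia they were Ccl3 (-1.97) and Ccl4 (-2.40) without the acute non-helpless library. Their ranges over the libraries left out were -1.97 to 3.10 and -2.40 to 3.20. In monocytes against macrophages they were Olfml3 (-0.20), Fcrls (-0.85) and Cst3 (-0.15) without microglial-marker barcodes, and Klf2 (0.66) without lymphocyte-gene barcodes. F13a1 was at -2.33 with libraries matched and -0.27 without the chronic non-helpless library (range to 2.81 over the libraries left out), and Ccl12 at -0.093 with libraries matched. In recovered against chronic non-helpless barcodes, Ms4a4c (0.58), Mmp8 (-1.18) and Cebpb (-0.094) changed without microglial-marker barcodes. Mmp8 also changed with each cell weighted equally (-0.57) and without neutrophil-gene barcodes (-0.74).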
